A study of Homo sapiens with 4 samples.

Results

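The genes described here encode the Polycomb repressive complex 2 (PRC2) and the DNA methylation machinery. They are 10 genes, chosen by name with earlier results of these data known. EZH2, EZH1, SUZ12, EED and JARID2 stand for PRC2, and DNMT1, UHRF1, HELLS, DNMT3A and DNMT3B for DNA methylation. All 10 were among the 59050 genes of the count table, and all 10 were among the 16516 that passed a filter on low counts and were tested. RNA came from RCC4, an established human line of clear cell renal cell carcinoma (ccRCC) that lacks functional VHL. The cells carried a doxycycline-inducible short hairpin RNA, shPML#1 (shPML below), that targets PML, or a scrambled hairpin (shCtrl), and both groups received doxycycline at 100 ng/ml for 96 h. The study describes 2 experiments with independent lentiviral infections, and the replicate numbers of the 2 shPML and 2 shCtrl libraries were read as those experiments. Both groups are populations of infected cells, and 1 hairpin against PML was sequenced, so an effect of PML loss and an effect of that hairpin cannot be told apart. In bulk RNA, fewer cells of a type and less RNA per cell cannot be told apart either.

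PRC2 places methyl groups on lysine 27 of histone H3, a mark of silenced genes. EZH2 and EZH1 are its alternative catalytic subunits, EZH2 being the form typical of dividing cells and EZH1 that of resting cells. SUZ12 and EED are core subunits that catalysis needs, and JARID2 is an accessory subunit that helps to bring the complex to its targets. DNMT1 copies CpG methylation onto newly made DNA, UHRF1 guides it to half-methylated sites, and HELLS is a chromatin remodeller required for normal methylation. DNMT3A and DNMT3B set methylation at unmethylated sites. Histone and DNA methylation were not measured in these libraries, which give RNA levels only.

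The promoters are shown first, since several of these genes are known targets of E2F factors, which switch on genes of S phase. RefSeq promoter windows (GRCh38.p14, 250 bases before to 50 after a start of transcription) were found for all 10 genes. Windows were searched on both strands for the 8-letter words TTTCCCGC, TTTCGCGC, TTTGCCGC and TTTGGCGC, which are forms of the E2F motif. Among the 10 genes, 6 had a window with such a word, EZH2, EZH1, SUZ12, DNMT1, UHRF1 and HELLS, against 6.50% of the 10632 tested genes found in the promoter table and 3.31% of its 35116 windows. The stretches that hold the words run 5′ to 3′ on the strand of the gene, with the words in capitals, which read as the reverse complement where the word lies on the other strand.
EZH2, chr7:148884272-148884320, minus strand: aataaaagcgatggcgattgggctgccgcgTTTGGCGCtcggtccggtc
EZH1, chr17:42745118-42745185, minus strand: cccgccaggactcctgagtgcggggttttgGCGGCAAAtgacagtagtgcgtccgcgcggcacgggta
SUZ12, chr17:31936788-31936855, plus strand: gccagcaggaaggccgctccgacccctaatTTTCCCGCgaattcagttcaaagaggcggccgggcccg
DNMT1, chr19:10194934-10194985, minus strand: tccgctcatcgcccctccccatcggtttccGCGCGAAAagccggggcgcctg
UHRF1, chr19:4909457-4909520, plus strand: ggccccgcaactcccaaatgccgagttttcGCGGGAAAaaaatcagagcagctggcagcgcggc
UHRF1, chr19:4909954-4910021, plus strand: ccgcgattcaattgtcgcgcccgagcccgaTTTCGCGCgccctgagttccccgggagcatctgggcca
HELLS, chr10:94545682-94545807, plus strand: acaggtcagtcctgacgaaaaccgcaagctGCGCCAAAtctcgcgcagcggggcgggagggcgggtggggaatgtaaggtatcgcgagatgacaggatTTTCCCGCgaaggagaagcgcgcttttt

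Counted from the first transcribed base as 0, the words began close to the start in EZH2 (1), DNMT1 (-2), HELLS (-8) and the first window of UHRF1 (-14). They lay further upstream in EZH1 (-115), SUZ12 (-189), the second window of UHRF1 (-160) and the other word of HELLS (-76). No word was found in the windows of EED, JARID2, DNMT3A and DNMT3B. The letters CCAAT, the NF-Y motif, occurred in a window of 7 of the 10 genes, beside 43.1% of tested genes, and 4 times in the first window of EZH2. Either of the words TTTGAA and TTCGAA of the cell cycle homology region occurred in SUZ12 and DNMT3A, beside 15.2% of tested genes. The window of DNMT3B held 3 CpG dinucleotides, whereas those of the other 9 genes held 16 to 46. It lay 17467 bases inside the outermost DNMT3B start of the count table, and that of HELLS lay 44354 bases inside. The UHRF1 windows, those with the E2F words included, lay 6421 to 7287 bases inside its outermost start, and the DNMT3A window with the cell cycle homology word lay 90459 bases inside. These matches describe letters and were not tested for binding.

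**Figure D1:**
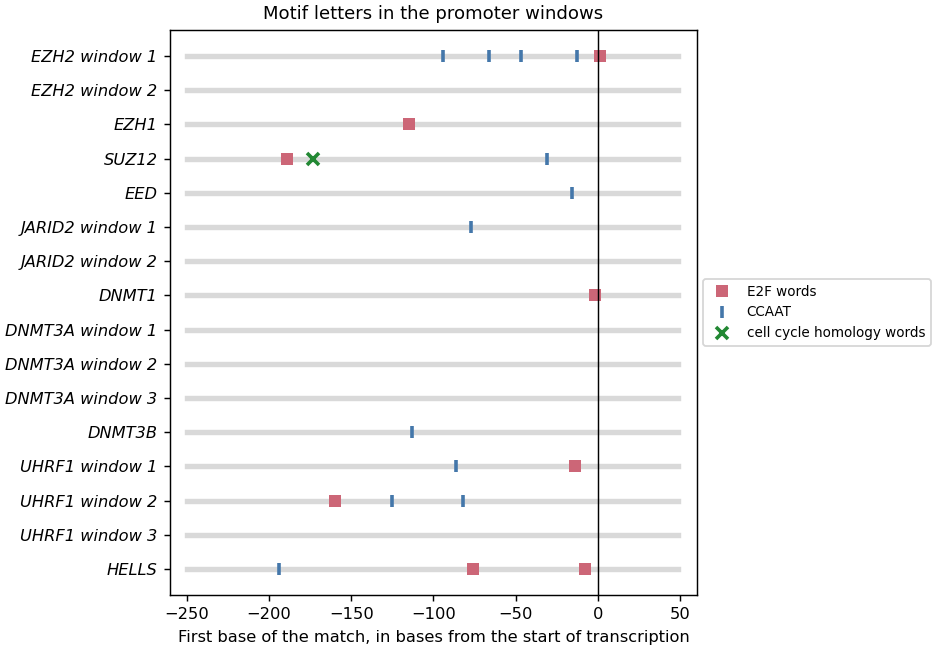
Each grey line is a RefSeq promoter window from 250 bases before to 50 after a start of transcription, and marks show where E2F words (squares), CCAAT (bars) and cell cycle homology words (crosses) begin. Of the 6 DNMT3A windows, the 3 nearest its outermost start are drawn. Squares sit near the start in EZH2, DNMT1, HELLS and UHRF1 and are absent from EED, JARID2, DNMT3A and DNMT3B.

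The libraries held 27781193 to 69870617 counted reads, and 17851 to 42211 of them fell on the 10 genes. PML, the targeted gene, had 93.1 and 136 CPM (counts per 1000000 counted reads, after scaling) in the shCtrl libraries of replicates 1 and 2, and 54.9 and 87.6 in the shPML libraries. It was lower in shPML within each replicate, at 0.589 and 0.644 times the shCtrl level. Its log2 fold change was -0.69 ± 0.30 (edgeR adjusted p = 0.320) without the replicate number as a block and -0.70 ± 0.11 (edgeR adjusted p = 4.19e-07) with it. Of 8 markers of renal carcinoma cells, PAX8, CA9 and keratins among them, all were expressed in every library, the lowest being PAX2 with 27.8 CPM. The shPML library of replicate 2 stood apart from the other 3. Of 20 macrophage markers, a list written after these counts were seen, 19 had 10 or more counts in that library and C1QB was at 0. In each of the other 3 libraries, 3 of the 20 reached 10 counts. The summed level of the 20 was 5.97 and 5.50 CPM in shCtrl, 5.55 in shPML replicate 1 and 380.03 in shPML replicate 2, where LYZ, the macrophage lysozyme, was at 85.4 CPM and CD14 at 42.8. In a separate list of 6 genes of other cell types, PTPRC, the pan-leukocyte antigen, had 0, 0, 7 and 346 counts in shCtrl 1, shCtrl 2, shPML 1 and shPML 2, and PECAM1, of endothelium and myeloid cells, had 0, 0, 3 and 113. CD3E of T cells, DCN and LUM of fibroblasts were at 0 in all 4 libraries, and CDH5 of endothelium had at most 2 counts. The part of this RNA in the values below was not tested, so each of the 10 genes is also given within replicate 1, whose libraries had the summed levels of 5.97 and 5.55.

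EZH2, UHRF1 and HELLS fell by 0.63 to 1.12 on the log2 scale in shPML when the replicate number entered the fit as a block. EZH1, JARID2 and DNMT3B rose by 0.75 to 1.06 in the same fit. SUZ12, EED, DNMT1 and DNMT3A changed by less than the log2 threshold of 0.5. A call needed a log2 fold change past 0.5 in size and an adjusted p below 0.05, by the quasi-likelihood test of edgeR and Benjamini-Hochberg adjustment over all genes tested. With the block 3 of 10 were called lower, where 10.5% of all genes tested were, and 3 of 10 higher, where 8.57% were. Since the 10 genes were chosen with earlier results known, such counts beside all genes are a description and do not measure enrichment. Without the block, 0 of 10 were called in either direction, where 0.412% of all genes were. At an unadjusted p under 0.05 that fit had 6 of the 10, where it had 17.9% of all genes. DESeq2 without the block called EZH2 lower, where it called 5.44% of all genes lower, and EZH1, JARID2 and DNMT3B higher, where it called 3.49% higher. Counted without a model, 5 of the 10 genes were lower in each shPML library than in either shCtrl library, and 4 were higher, beside 24.9% and 23.1% of all genes tested. The log2 ratio had the same sign in both replicates for all 10, negative for 6 and positive for 4, and over all genes tested it was negative in both for 37.1% and positive in both for 37.3%. The median log2 fold change of the 10 was -0.30, beside 0.00 over all genes with the block.

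**Figure D2:**
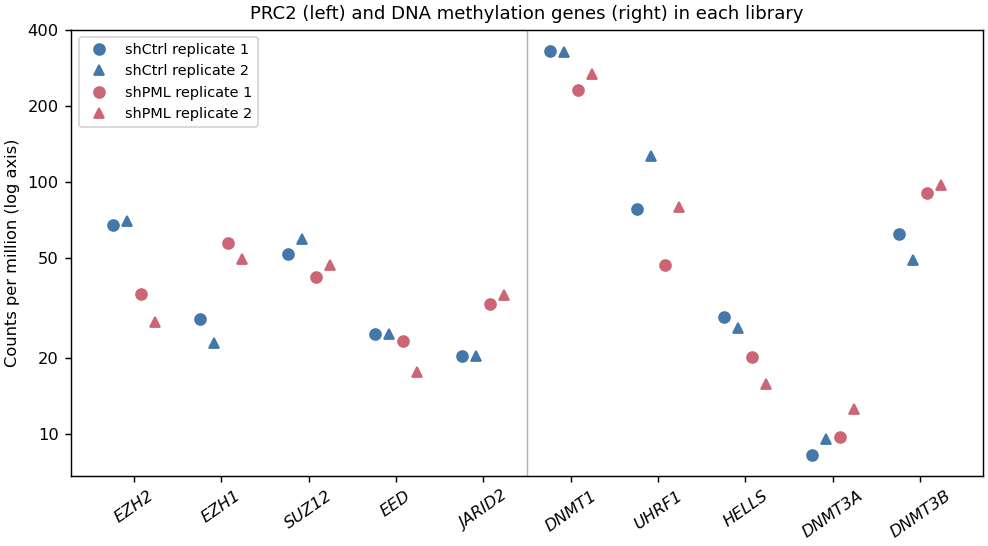
Level in CPM of each gene in each of the 4 libraries on a log axis, PRC2 genes at the left and DNA methylation genes at the right. Blue marks are shCtrl and red marks shPML, circles are replicate 1 and triangles replicate 2. The groups overlap for UHRF1 alone, at 77.8 in shCtrl replicate 1 and 79.7 in shPML replicate 2.

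The catalytic subunits of PRC2 moved in opposite directions. EZH2 (chr7:148807384-148884287, minus strand) was at 67.7 and 70.1 CPM in shCtrl and at 35.9 and 27.8 in shPML. The shCtrl libraries were close together, both shPML libraries lay below them, and that of replicate 2 was the lowest. EZH2 was at 0.530 times its shCtrl level in replicate 1 and 0.396 times in replicate 2. The log2 fold change was -1.11 ± 0.18 (SE, n = 2 and 2; edgeR adjusted p = 0.0682) without the block and -1.12 ± 0.12 (edgeR adjusted p = 3.45e-11) with it. EZH1 (chr17:42700275-42745049, minus strand) was at 28.5 and 22.9 CPM in shCtrl and at 57.0 and 49.5 in shPML. Both shPML libraries were above both shCtrl libraries, and replicate 1 was the higher in each group. EZH1 was 2.0 times as high in shPML in replicate 1 and 2.16 times in replicate 2. Its log2 fold change was 1.05 ± 0.19 (edgeR adjusted p = 0.077) without the block and 1.06 ± 0.12 (edgeR adjusted p = 1.82e-10) with it.

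Compared per length, as CPM per kilobase of exons (RPKM), EZH2 was 3.60 and 4.64 times as abundant as EZH1 in the shCtrl libraries, and 0.955 and 0.849 times as abundant in the shPML libraries. The ratio was thus 3.78-fold lower in replicate 1 and 5.47-fold lower in replicate 2, and below 1 in both shPML libraries. Unlike these folds, the ratio itself and the shares that follow depend on the lengths used. These were all annotated exons, 3062 bases for EZH2 and 4642 for EZH1. EZH1 made up 21.7% and 17.7% of the summed RPKM of both genes in shCtrl and 51.2% and 54.1% in shPML. The sum itself was 28.2 and 27.8 RPKM in shCtrl and 24.0 and 19.7 in shPML, so it was lower in shPML by less than EZH2 alone was. No test of the ratio was made, and an exact two-sided permutation test, which was not run, cannot give a p under 0.33 with 2 libraries against 2.

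The core subunits SUZ12 and EED, on which both catalytic subunits depend, were below the threshold. SUZ12 (chr17:31937007-32001038, plus strand) was at 51.9 and 59.2 CPM in shCtrl and at 41.9 and 46.6 in shPML. The groups did not overlap, and within replicates 1 and 2 the log2 ratio was -0.31 and -0.35. Its log2 fold change of -0.33 ± 0.12 with the block had an edgeR adjusted p of 0.0276, and without it the adjusted p was 0.375. A transcribed pseudogene, SUZ12P1, resembles part of SUZ12 and was at 6.0, 6.42, 4.10 and 3.49 CPM in shCtrl 1, shCtrl 2, shPML 1 and shPML 2, and how reads that match both were assigned is not known. EED (chr11:86244753-86278813, plus strand) was at 24.8 CPM in both shCtrl libraries and at 23.4 and 17.5 in shPML. In replicate 1 it differed little, with a log2 ratio of -0.08, and in replicate 2 the ratio was -0.50. Its log2 fold change with the block was -0.28 ± 0.13 (edgeR adjusted p = 0.105). Per length, EZH2 exceeded EED by 3.05 and 3.16 times in shCtrl and by 1.72 and 1.77 times in shPML, and the ratio within each group varied little.

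JARID2, the accessory subunit (chr6:15246069-15522042, plus strand), was at 20.3 CPM in both shCtrl libraries and at 32.8 and 35.6 in shPML. It was 1.61 times as high in shPML in replicate 1 and 1.75 times in replicate 2, a gap wider than that between libraries of a group. Its log2 fold change was 0.75 ± 0.16 (edgeR adjusted p = 0.0962) without the block and 0.75 ± 0.13 (edgeR adjusted p = 2.59e-06) with it. The antisense gene JARID2-AS1 had at most 14 counts in a library.

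**Figure D3:**
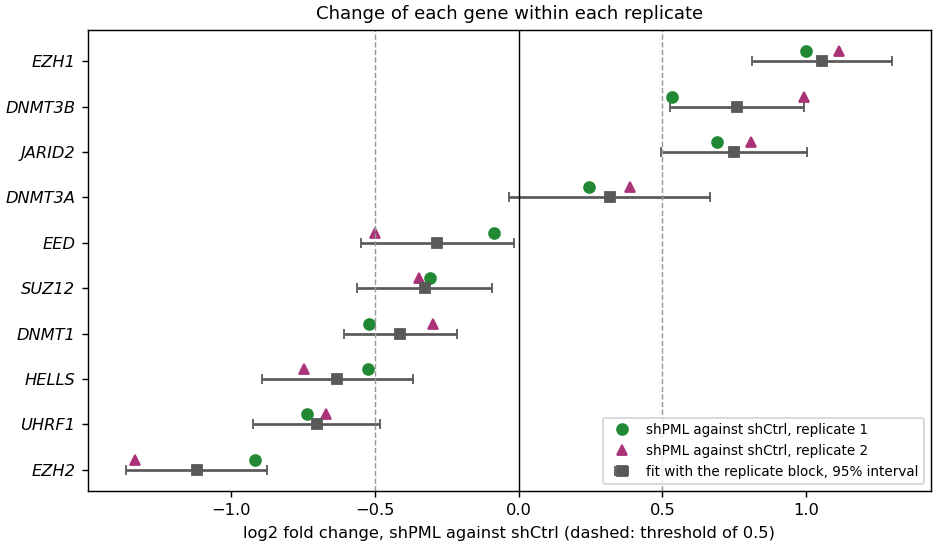
The log2 ratio of shPML to shCtrl within replicate 1 (green circles) and within replicate 2 (purple triangles), and the log2 fold change of the edgeR fit with the replicate block (grey squares, bars give the 95% interval). Dashed lines mark the threshold of 0.5. For all 10 genes both replicates lie on the same side of 0, and the replicates are furthest apart for DNMT3B, EZH2 and EED.

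The maintenance genes were lower in shPML in both replicates. DNMT1 (chr19:10133346-10195135, minus strand), the most abundant of the 10, was at 332 and 329 CPM in shCtrl and at 231 and 267 in shPML. Both shPML libraries were below both shCtrl libraries, at 0.697 times the level in replicate 1 and 0.813 times in replicate 2. The log2 fold change of -0.41 ± 0.10 had an edgeR adjusted p of 6.45e-04 with the block and of 0.268 without it, and did not reach the threshold of 0.5. UHRF1 (chr19:4903080-4962154, plus strand) was at 77.8 and 127 CPM in shCtrl and at 46.7 and 79.7 in shPML. Replicate 2 was the higher in each group by 0.70 and 0.77 on the log2 scale, as wide a gap as that between shPML and shCtrl, and the groups overlapped. Within a replicate the change was alike, with 0.601 and 0.629 times the shCtrl level. The log2 fold change was -0.70 ± 0.35 (edgeR adjusted p = 0.382) without the block and -0.70 ± 0.11 (edgeR adjusted p = 5.20e-07) with it. With a filter on low counts, UHRF1 was called only where the libraries were paired by replicate number. Without a filter, edgeR called it lower without the block as well (edgeR adjusted p = 0.0202). HELLS (chr10:94501434-94602099, plus strand) was at 29.1 and 26.3 CPM in shCtrl and at 20.2 and 15.7 in shPML. The groups did not overlap, and HELLS was at 0.695 times its shCtrl level in replicate 1 and 0.596 times in replicate 2. Its log2 fold change was -0.62 ± 0.20 (edgeR adjusted p = 0.196) without the block and -0.63 ± 0.13 (edgeR adjusted p = 1.03e-04) with it.

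The genes of new methylation were both higher in shPML, and DNMT3B alone was called. DNMT3B (chr20:32762385-32809356, plus strand) was at 62.1 and 48.9 CPM in shCtrl and at 90.0 and 97.3 in shPML. It was 1.45 times as high in shPML in replicate 1 and 1.99 times in replicate 2, and this gap of 0.46 on the log2 scale between replicates was wider than the median gap of 0.24 over all genes. The log2 fold change was 0.75 ± 0.18 (edgeR adjusted p = 0.123) without the block and 0.76 ± 0.12 (edgeR adjusted p = 2.99e-07) with it. DNMT3A (chr2:25227855-25342590, minus strand) was at 8.20 and 9.53 CPM in shCtrl and at 9.74 and 12.5 in shPML. The groups nearly touched, and its log2 fold change of 0.32 ± 0.17 with the block had a 95% interval of -0.03 to 0.67 and an edgeR adjusted p of 0.178. DNMT3B made up 92.2% to 95.5% of the summed RPKM of both genes in the 4 libraries, and that sum was 14.2 and 11.4 RPKM in shCtrl and 20.3 and 22.2 in shPML. The share depends on the lengths used, all annotated exons, 10736 bases for DNMT3A and 4630 for DNMT3B. Which transcripts were expressed was not tested.

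Ordered by RPKM in shCtrl, DNMT1 came first with 60.5 ± 0.46 (SD, n = 2) and DNMT3A last with 0.826 ± 0.09. EZH2 (22.5 ± 0.55) and UHRF1 (19.9 ± 6.74) followed DNMT1 and did not differ beyond their spread, nor did SUZ12 (12.4 ± 1.16) and DNMT3B (12.0 ± 2.02). HELLS (8.23 ± 0.57), EED (7.24 ± 0.01), EZH1 (5.53 ± 0.85) and JARID2 (3.33 ± 0.0013) came next. In shPML, DNMT1 was again first with 45.7 ± 4.63 and DNMT3B came second with 20.2 ± 1.13. UHRF1 (12.3 ± 4.53), EZH1 (11.5 ± 1.13), EZH2 (10.4 ± 1.87) and SUZ12 (9.85 ± 0.73) did not differ from their neighbours beyond the spread, nor did EED (5.97 ± 1.20), JARID2 (5.60 ± 0.33) and HELLS (5.33 ± 0.95).

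**Figure D4:**
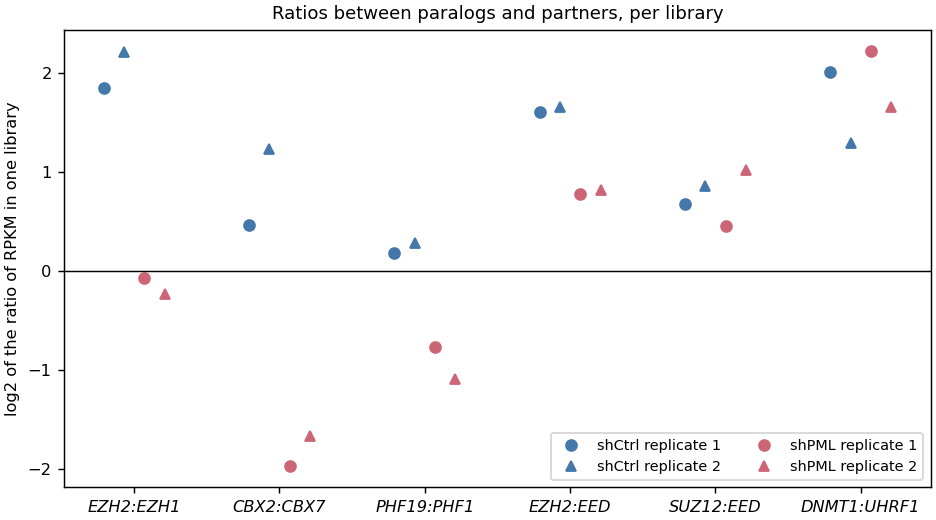
The log2 ratio of RPKM between paralogs and between partners in each library, with blue for shCtrl, red for shPML, circles for replicate 1 and triangles for replicate 2. EZH2:EZH1, CBX2:CBX7, PHF19:PHF1 and EZH2:EED are lower in both shPML libraries than in both shCtrl libraries, and SUZ12:EED and DNMT1:UHRF1 overlap.

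Among 8 other PRC2 subunits, EPOP was called lower and PHF1 higher with the block, and 0 were called without it. Over all genes tested, the block gave 10.5% lower and 8.57% higher. PHF1 and PHF19 are Polycomb-like proteins that link PRC2 to chromatin. PHF1 was at 25.5 and 25.4 CPM in shCtrl and at 39.6 and 43.8 in shPML, a log2 fold change of 0.71 ± 0.12 (edgeR adjusted p = 4.86e-06, block). PHF19 was at 57.3 and 61.1 CPM in shCtrl and at 46.1 and 40.7 in shPML, and its log2 fold change of -0.45 ± 0.12 did not reach the threshold. Per length, the ratio of PHF19 to PHF1 was 1.13 and 1.21 in shCtrl and 0.588 and 0.470 in shPML. The histone-binding partners RBBP4 and RBBP7 had log2 fold changes of -0.13 and -0.20 with the block, and neither was called. EPOP had a log2 fold change of -0.65 ± 0.13 (edgeR adjusted p = 1.01e-04, block), and its groups overlapped.

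PRC1 ubiquitinates histone H2A and reads the PRC2 mark through CBX proteins. Of 22 subunits tested, 2 were called lower with the block, CBX2 and PCGF6, where 10.5% of all genes were. The block also gave 3 called higher, CBX7, SCML2 and PCGF2, where 8.57% of all genes were. Without the block 0 were called. CBX2 was at 21.9 and 27.7 CPM in shCtrl and at 8.73 and 12.4 in shPML. CBX7 was at 12.2 and 9.06 CPM in shCtrl and at 26.3 and 30.3 in shPML. The groups were far apart for both genes, and the log2 fold changes were -1.24 ± 0.14 (edgeR adjusted p = 1.11e-10, block) for CBX2 and 1.41 ± 0.14 (edgeR adjusted p = 3.43e-12, block) for CBX7. The ratio of CBX2 to CBX7 per length was 1.38 and 2.35 in shCtrl and 0.255 and 0.315 in shPML, which is 5.43-fold and 7.47-fold lower within replicates 1 and 2. SCML2 had a log2 fold change of 0.78 and SCMH1, which was not called, one of -0.49. The catalytic subunits RING1 and RNF2 were not called, with log2 fold changes of 0.32 and -0.28. The median over the 22 was 0.10 with the block, and without it and without the shPML library of replicate 2 it was -0.02. Within replicates 1 and 2 the median log2 ratio of the 22 was 0.07 and 0.12.

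The H3K27 demethylases KDM6A and KDM6B, which remove the PRC2 mark, were not called, with log2 fold changes of -0.04 and 0.49 with the block. The TET enzymes and TDG take part in DNA demethylation. Each was higher in both shPML libraries than in both shCtrl libraries, 4 of 4, beside 23.1% of all genes tested. TDG did so narrowly, at 25.1 CPM in shPML replicate 2 and 24.9 in shCtrl replicate 1. TET1 had at most 2.51 CPM in any library. TET3 alone was called, at 41.4 and 43.9 CPM in shCtrl and 53.9 and 73.2 in shPML, which gave 0.56 ± 0.12 on the log2 scale (edgeR adjusted p = 1.47e-04, block). TET2 had a log2 fold change of 0.39 and was not called. Of 9 genes listed with the readers of methylated CpG, MBD3 was called lower with the block, with overlapping groups, and 0 were called higher. Over all genes tested, 10.5% were called lower and 8.57% higher. MBD3 shares the methyl-CpG-binding fold of the family but does not itself bind methylated CpG selectively, and is known as a subunit of the NuRD complex. ZBTB33 and ZBTB38 had log2 fold changes of -0.48 and 0.46 and were not called.

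Of 10 genes listed as cofactors of maintenance methylation, 8 were lower in both shPML libraries than in both shCtrl libraries, beside 24.9% of all genes tested. The list includes DNMT3L, a partner of DNMT3A and DNMT3B rather than of maintenance, which had at most 19 counts in a library and overlapping groups. With the block 2 were called lower, where 10.5% of all genes were. CDCA7, which recruits HELLS to chromatin, was at 59.1 and 72.1 CPM in shCtrl and at 28.1 and 25.7 in shPML, a log2 fold change of -1.27 ± 0.12 (edgeR adjusted p = 7.42e-13, block). Within replicates 1 and 2 the log2 ratio of CDCA7 was -1.07 and -1.48. PCLAF, a partner of the replication clamp PCNA, had a log2 fold change of -1.08 ± 0.18 (edgeR adjusted p = 1.02e-06, block). ZBTB24, which controls CDCA7, had a log2 fold change of -0.35 and was not called. Of 8 genes of the methionine cycle, which makes the methyl donor, 0 were called lower with the block, where 10.5% of all genes were. MTRR, MTAP and MAT2B had log2 fold changes of -0.49, -0.30 and 0.18 and were not called.

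The targets of these systems were read from 2 lists. Of 39 HOX genes, which PRC2 silences in many tissues, 30 passed the filter. With the block HOXA4 was among those called higher and HOXC4 was called lower, where 8.57% and 10.5% of all genes were. HOXA4 had a log2 fold change of 0.56, HOXD8 one of -0.45 and HOXA2 one of -0.82, the last 2 not called, and the median of the 30 was 0.06. Without the block and without the shPML library of replicate 2 that median was -0.37, with shPML replicate 1 set against shCtrl of both replicates. Within replicates 1 and 2 the median log2 ratio of the 30 was -0.07 and 0.05. Of 28 germline genes that DNA methylation keeps silent in somatic cells, 27 did not pass the filter and had at most 17 counts in any library. STK31, the other one, was not called.

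Proliferation genes moved beside EZH2, UHRF1, HELLS and CDCA7. Of 13 tested, all were below the shCtrl libraries in both shPML libraries, beside 24.9% of all genes tested. With the block 10 were called lower, where 10.5% of all genes were. Without it BIRC5 alone was called, with an edgeR adjusted p of 0.0484. The median log2 fold change of the 13 was -1.07 in replicate 1 and -1.11 in replicate 2. MKI67 was at 485 and 374 CPM in shCtrl and at 248 and 228 in shPML, and TOP2A was at 303 and 232 in shCtrl and at 145 and 105 in shPML. CCNB1 fell by 1.39 on the log2 scale with the block. PCNA, also a cofactor of maintenance methylation, had a log2 fold change of -0.43 and did not reach the threshold. EZH2 was within the range of this list, from -1.52 to -0.35 with the block, as were UHRF1, HELLS and DNMT1. SUZ12 (-0.33) and EED (-0.28) were lower in shPML but lay outside that range. EZH1, JARID2, DNMT3B and DNMT3A (0.32), which were higher in shPML, also lay outside it. The part of proliferation in the values of the 10 genes was not tested.

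**Figure D5:**
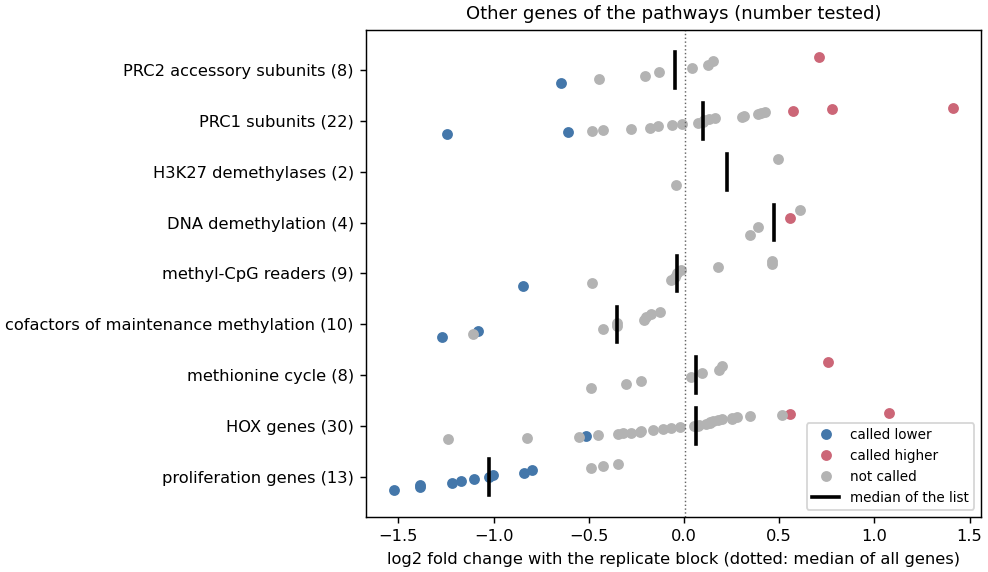
Each point is the log2 fold change of 1 gene in the edgeR fit with the replicate block, grouped by list with the number tested in brackets. Blue marks genes called lower, red genes called higher and grey those not called, black bars are list medians and the dotted line is the median of all genes. PCNA is drawn in both the cofactor and the proliferation list, and the median of the proliferation genes lies furthest to the left.

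Leaving out the library with macrophage RNA bears on the 10 genes as follows. Within replicate 1 the log2 ratios were -0.92 for EZH2, -0.73 for UHRF1, -0.52 for HELLS and -0.52 for DNMT1, and 1.00 for EZH1, 0.69 for JARID2, 0.53 for DNMT3B and 0.25 for DNMT3A. The 6 called genes thus lay beyond 0.5 in replicate 1 alone, a comparison of 2 libraries with no replicate check. The edgeR fit without the block and without that library assumes that the lone shPML library varies like the shCtrl libraries. It cannot measure the spread within shPML, so its calls say nothing of the 10 genes in particular. Among the other genes named as called with the block, PCGF2 (0.45), PCGF6 (-0.42), TET3 (0.38), HOXA4 (0.46) and HOXC4 (-0.36) had log2 ratios within 0.5 in replicate 1, and EPOP (-0.75), SCML2 (0.89), MBD3 (-0.94) and PCLAF (-1.03) lay beyond it.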

How the data were processed

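The authors sequenced stranded, poly(A)-selected mRNA from a single end, trimmed reads with Trimmomatic 0.39, mapped them to GRCh38 by STAR and used featureCounts 1.6.4 to count them. The deposited values are raw counts per gene, without normalization. The Gencode release and the strand setting are not given in the sources used here, and exons of the 10 genes overlapped no other gene but a microRNA with 0 counts in EED. Columns without a number were taken as replicate 1, and a correction of swapped labels stated in the record was used as corrected. The table has no unmapped column.

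Counts were filtered with filterByExpr, normalized by TMM and tested with the edgeR 4.0.16 quasi-likelihood test in R 4.3.3, shPML against shCtrl, with Benjamini-Hochberg adjustment. CPM and RPKM use TMM library sizes, and log2 ratios within a replicate a prior count of 2. RPKM divides by all annotated exon bases of a gene, so levels compared between genes depend on that annotation. Replicate numbers were read as the 2 experiments of the study's methods, so values with the number as a block are given beside those without. Deviations from the group means correlated at 0.546 between the replicate 1 libraries. Libraries of a group came from the separate infections the methods describe and differed by far more than counting error. Without the block, p-values rest on the spread between the 2 libraries of a group. With the block, a gene's own spread is the difference between its 2 within-replicate ratios. In both fits the spread of a gene is drawn toward that of other genes, strongly so with the block. There the SE was 0.12 for both EZH2 and SUZ12, though their ratios differed between replicates by -0.42 and -0.04. Small p-values with the block therefore do not measure how well the replicates of that gene agree. Alternatives were DESeq2 1.42.0, RLE or total-count scaling, other filters and thresholds, and each library left out. The 10 genes and the lists were chosen with earlier results of these data known, the macrophage list after its counts were seen. From each list, up to 2 lower and 2 higher genes with the smallest p under the block and no overlap of groups are named, with partners and proliferation genes named in advance. EPOP, PCGF6, PCGF2, RING1, RNF2, KDM6A, KDM6B, MBD3, HOXC4 and STK31 were named after their values were seen, as were LYZ, CD14 and C1QB. Some genes within this rule are not reported here.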

Additional observations from a re-analysis of the deposited data

How the results depend on the processing

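The calls depended on the replicate block. The 10 genes kept their direction under every alternative run, as did the other genes chosen by the naming rule. List medians near 0 changed sign without 1 library: HOX genes from 0.10 to -0.29 without shCtrl replicate 1 and -0.37 without shPML replicate 2, methyl-CpG readers from -0.04 to 0.10 and 0.07, the methionine cycle from 0.07 to -0.06 without shPML replicate 1, and PRC1 from 0.11 to -0.02 without shPML replicate 2. Such fits set a lone library against both replicates of the other group, without pairing. Within replicates 1 and 2 the medians were 0.07 and 0.12 for PRC1 and -0.07 and 0.05 for HOX genes. They were 0.03 and -0.07 for the methyl-CpG readers and 0.13 and -0.03 for the methionine cycle. The block gave 1735 genes lower and 1415 higher, where the fit without it gave 55 and 13, and DESeq2 gave 898 and 577 without the block and 1386 and 1109 with it. Without the block, RLE scaling gave 0 and 0, total counts 24 higher, no filter 946 and 891, and at least 10 counts in every library 144 and 53. Without each library in turn, with the lone library of a group assumed to vary like the other group, 0 to 61 were lower and 0 to 187 higher, the 61 and 187 without shPML replicate 1 and 0 in both directions without any other library. The block with RLE gave 1657 and 1434, with total counts 1649 and 1567, with no filter 1656 and 1593, with at least 10 counts 1671 and 1458, and with a fold threshold of 1 646 and 550. These alternatives with the block were chosen after seeing the data. Of the 10 genes, 3 were lower and 3 higher under each of them, and under DESeq2 with the block, except that a threshold of 1 left 1 lower, EZH2, and 1 higher, EZH1. DESeq2 without the block called 1 lower and 3 higher. Without the block and without a filter, edgeR called 2 lower, EZH2 and UHRF1, and 3 higher. Without any 1 library, 0 were called in either direction. The median over the 10 genes ranged from -0.32 to -0.24. The cause of these differences was not tested.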
